A study of Bos taurus with 47 samples.

Results

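A set of 219 genes was lower in every liver of a Holstein cattle tissue series than in any library of any other tissue. A gene identifier belonged to the set when its highest FPKM (fragments scaled to transcript length and to the size of the library) in the 4 livers was below its lowest FPKM in the 43 other libraries. In addition, the unweighted mean of the 14 other label means had to be at least 4 times the Liver mean and at least 1 FPKM. These conditions held for 219 of 24616 identifiers (0.890%). The genes were selected on the liver FPKM values themselves, so the difference between liver and the other tissues is described here and not tested.

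Livers came from 4 Holstein animals, called here males A and B and females A and B. The same 4 animals gave adipose tissue, frontal cortex, heart, ileum, kidney, lung, muscle, rumen and spleen, and the 2 females gave ovary and uterus. The lactating mammary gland came from female A alone, the dry mammary gland from female B alone, and lymphocytes from a further male. The series text speaks of 14 tissues and 4 individuals, while the sample labels carry 15 tissues and 5 numbers, which are read here as animals. No treatment is labelled, ages are not given in the sources used here, and each tissue piece is a mixture of cell types, so fewer cells of a type and less RNA per cell cannot be told apart.

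The liver is built mainly of hepatocytes, which make plasma proteins and bile and handle sugar, fat, amino acids and ammonia for the rest of the body. For several steps of metabolism the liver is known to use enzyme forms of its own in place of those used by most other tissues, and hepatocytes hold little of the contractile and fibrous machinery of muscle and connective tissue. The deposited identifiers are not paired with gene names, so the known roles of the 219 genes cannot be given and the liver label could not be set against marker genes. The genes are described by where they were high and low, and only 4 identifiers are printed.

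The summed FPKM of the livers ran from 641837 to 690834, within the range of the other libraries (576130 to 964931). Depth in fragments is unknown. Low FPKM values fall on steps of whole fragments, and by the commonest ratio among genes under 0.2 FPKM the livers of male B, female A and female B had 0.795, 0.811 and 0.819 of the depth of the liver of male A. That ratio was shared by only 20 of 890, 34 of 928 and 29 of 874 such genes, so these depths are rough estimates. Traces of genes restricted to another tissue were present in all 4 livers, given here as the median over the genes in ppm of their level in the source tissue. The 10 genes restricted to rumen stood at 571, 80.1, 270 and 95.4 ppm in the livers of males A and B and females A and B. The 9 genes restricted to muscle stood at 358, 90.8, 186 and 119 ppm, and the 33 genes restricted to frontal cortex at 179, 0, 177 and 127 ppm. In 10 of the non-liver libraries, 9 of them from female A, traces of liver and rumen genes were lowest, at 0 to 33.3 ppm and 0 to 6.51 ppm.

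Together the 219 genes took up a small part of the liver transcriptome. Their summed level was 922, 751, 776 and 725 FPKM in the livers of males A and B and females A and B, and 4096 to 29517 FPKM in the 43 other libraries, with a median of 8558. That was 0.110% to 0.137% of the summed FPKM of a liver and 0.463% to 4.06% elsewhere. The livers lie apart from all other libraries, as the rule requires.

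Among the other labels the summed level was lowest in spleen, at 4234 FPKM ± 105 (SD, n = 4), and highest in muscle, at 26148 FPKM ± 2685 (SD, n = 4). Frontal cortex reached 15310 ± 322 FPKM, adipose tissue 13397 ± 2255 and heart 11488 ± 1142, against 6915 ± 232 in kidney and 6736 ± 290 in ileum (SD, n = 4 each). The lymphocyte and lactating gland libraries had 4430 and 4353 FPKM, with no replicate. In muscle 1 gene made up most of the sum. Without that gene muscle had 6974 FPKM ± 149, kidney 6347 ± 217, liver 712 ± 65.7 and frontal cortex 14585 ± 264 (SD, n = 4 each).

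**Figure D1:**
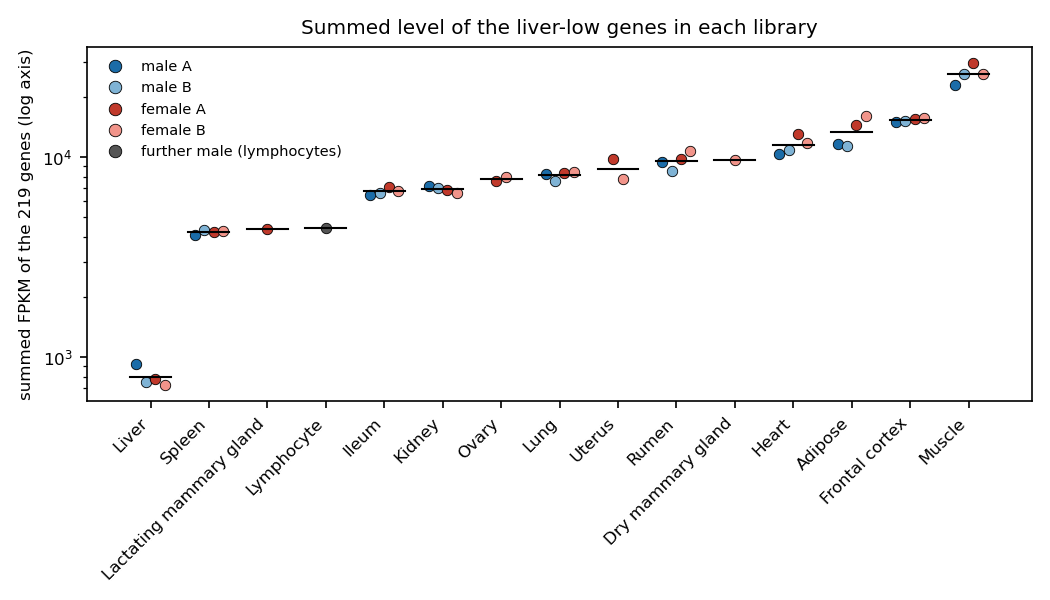
Summed FPKM of the 219 genes in each of the 47 libraries (points, log axis, coloured by animal), by tissue label with Liver at the left and the other labels ordered by their mean; lines are label means. The 4 livers sit between 725 and 922 FPKM, below all others, which start at 4096.

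A typical gene of the set was present at a low level in liver and at a moderate level elsewhere. The median Liver mean was 1.15 FPKM (0.0147 to 99.1), and the median of the mean over the other labels was 14.7 FPKM (1.14 to 1881). The mean of the other labels over the Liver mean had a median of 12.0 and reached 738. For 122 genes this ratio was at least 10, and for 25 genes (11.4%) at least 100. In liver 100 of the genes were under 1 FPKM, 25 were under 0.1 FPKM, and 13 had 10 FPKM or more. No gene was at 0 in more than 2 livers, and 21 were listed at 0 in at least 1 of them.

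**Figure D2:**
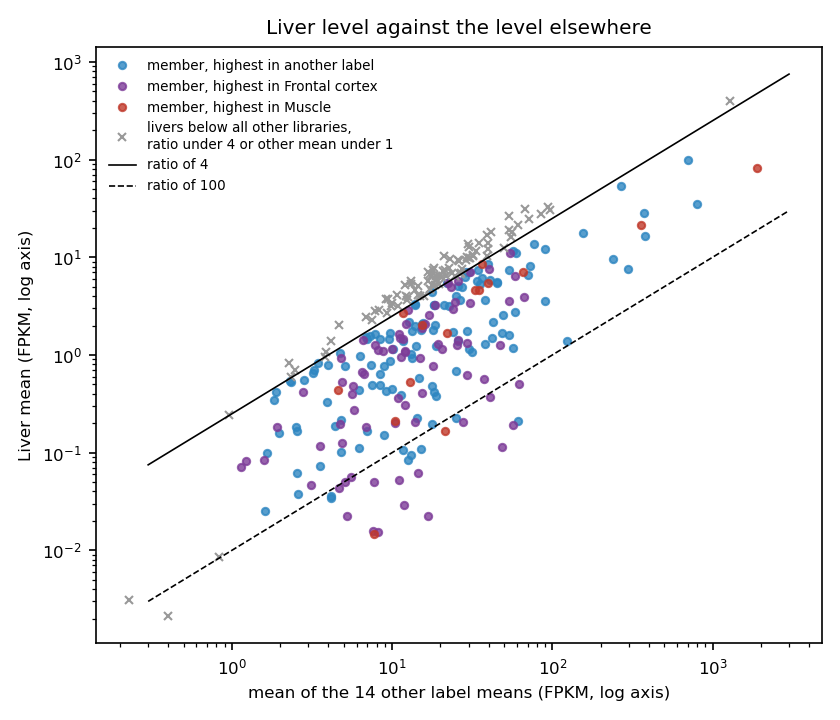
Liver mean against the mean of the 14 other label means for each gene, in FPKM on log axes; coloured points are the 219 genes and grey crosses are identifiers whose livers were below all other libraries but that failed the ratio of 4 or the level of 1 FPKM. All 219 points lie below the solid line for a ratio of 4, and 25 lie below the dashed line for a ratio of 100.

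The separation from the nearest library was narrow for most genes. The lowest other library stood at a median of 1.28 times the highest liver, at under 1.5 times for 152 genes and at 2 times or more for 23. The widest separation was 3.60 times, in a gene with 1.84, 1.66, 1.78 and 1.17 FPKM in the livers of males A and B and females A and B, against 6.61 FPKM in the lactating gland, its lowest other library. That gene, picked after its values were seen, was highest in lung, with 316, 225, 284 and 144 FPKM in the same animals. The next widest separations were 3.35 and 3.33 times. The first of these genes had 1.79 FPKM ± 0.186 in liver, against label means of 7.37 (lactating gland) to 37.1 FPKM (uterus). The other had 0.510 FPKM ± 0.0645 in liver, against 2.42 FPKM in kidney, its lowest other label, and 146 FPKM in rumen, its second highest after frontal cortex.

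The edge of the set was set by the ratio for some identifiers and by single libraries for more. The 3 genes just inside had ratios of 4.02, 4.06 and 4.06, and the 3 just outside had 3.99, 3.99 and 3.96. Another 349 identifiers met the ratio and the level but had exactly 1 non-liver library that was not above the highest liver. That library was the lactating gland for 155 of them and lymphocytes for 137, which have no replicate. Without lymphocytes and both mammary glands the rule gave 609 genes, 215 of them in the set. Without female A, whose libraries include the lactating gland, it gave 471, and without the 10 libraries of lowest traces 399. The scaling of the libraries mattered too, with 128 genes after rescaling to the same summed FPKM (125 of them in the set) and 95 after quantile normalization (60 of them in the set).

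Low expression across a whole tissue of this kind was not equally common. The same rule applied to the other labels with at least 2 libraries gave 1048 genes in muscle, 112 in frontal cortex, 42 in rumen and 41 in heart. Adipose tissue and kidney had 3 each, lung, ovary, spleen and uterus 2 each, and ileum 0. These are counts by the rule on FPKM as deposited, without a test, and other scalings were not tried for these labels. Ovary and uterus had 2 libraries each, fewer than the others listed, so the rule was not equally strict for them.

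Frontal cortex had the highest median level of the set among the 14 other labels. Muscle had the largest summed level, but without the most abundant gene of the set frontal cortex had the largest. Frontal cortex was also the most frequent leading tissue of the set. It was the highest of the 14 other labels for 77 of the 219 genes (35.2%), against 15.4% of the 11407 genes that were above 0 in all 43 non-liver libraries with a mean of at least 1 FPKM, a set that contains all 219. Among the 2148 of those genes that met the ratio of 4 but had a liver overlapping another library, the share was 24.6%. Uterus was highest for 20 genes (9.13%, against 7.68% of the 2148 and 5.88% of the 11407), lymphocytes for 19 (8.68%, against 16.4% and 24.0%), muscle for 15 (6.85%, against 5.26% and 2.92%), rumen for 14 (6.39%, against 4.14% and 4.25%) and lung for 13 (5.94%, against 5.07% and 5.23%). Spleen was highest for 2 (0.913%, against 3.72% and 5.08%). The choice of a high mean outside liver by itself favours genes with a high leading label, and these shares were not tested. The median of the genes highest in cortex was 53.9 FPKM there and 0.663 FPKM in liver. The 11 genes highest in kidney had a median of 59.5 FPKM there and 1.70 FPKM in liver, and the 20 highest in uterus 40.5 and 0.737 FPKM. The 7 genes highest in heart were the most abundant in liver, with a median of 8.23 FPKM there, and had 287 FPKM in heart. Genes highest in lymphocytes had ratios of 4.06 to 12.8, against 4.06 to 738 for those highest in cortex.

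Most genes were spread over many tissues and few were close to constant. The highest label held at least 50% of the summed 14 label means for 30 genes, and 24 of these 30 were cortex genes. The ratio stayed at 4 or more for 206 genes when their highest label was left out, and for 197 when the median over the labels replaced the mean. For 10 genes the highest label was under 4 times the lowest, and for 41 it was at least 100 times. In 141 genes every one of the 43 other libraries held 1 FPKM or more. None of the counts in this paragraph was computed for genes outside the set. They describe the set alone and do not show whether a leading cortex is particular to it.

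The lowest of the 14 other labels was the lactating gland for 105 genes (47.9%, against 33.3% of the 2148 and 46.6% of the 11407 genes), lymphocytes for 40 (18.3%, against 25.3% and 12.1%) and muscle for 27 (12.3%, against 25.4% and 27.1%). Kidney was the lowest for 5 (2.28%, against 2.19% and 0.622%). These shares are a description, and their differences were not tested.

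**Figure D3:**
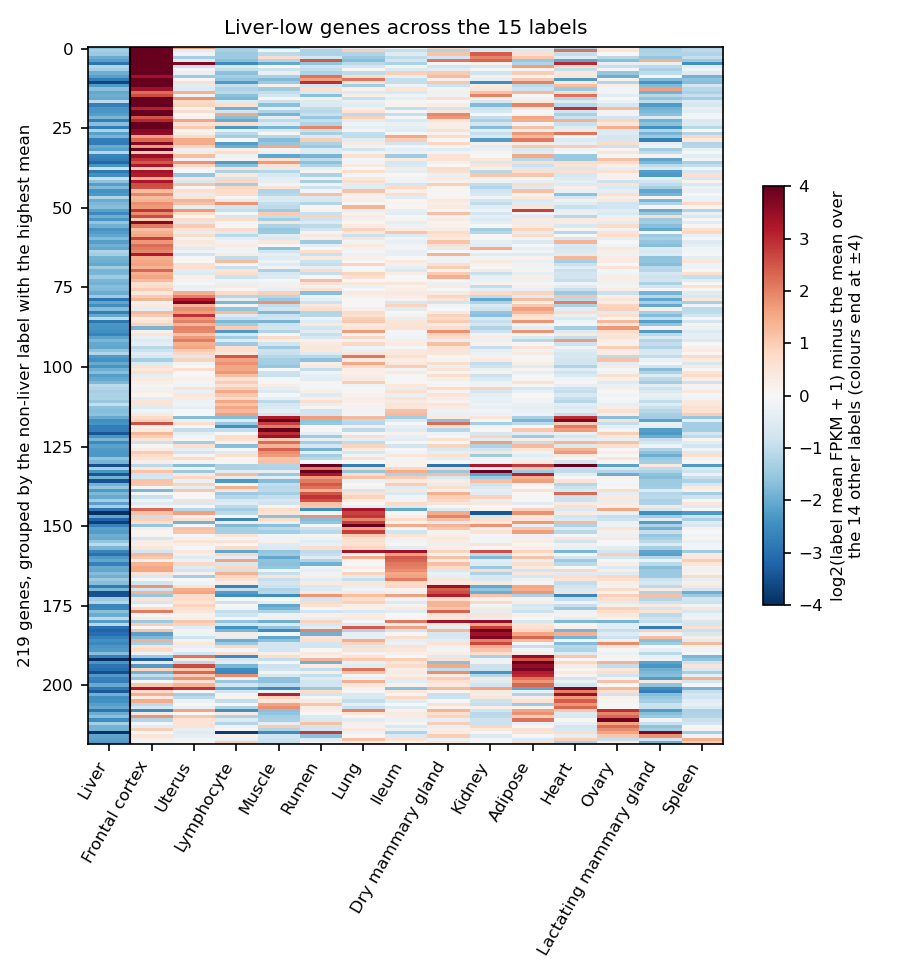
Each row is 1 of the 219 genes and each column 1 of the 15 labels, Liver at the left; colour is log2(label mean FPKM + 1) minus the mean of the same value over the 14 other labels. The Liver column is blue throughout, and the largest block of red is frontal cortex, the highest label for 77 genes.

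ENSBTAG00000017075 had the largest ratio, 738, or 89.6 without its highest label, frontal cortex, which held 88.7% of its summed label means. It was at 0, 0.0608, 0.0300 and 0 FPKM in the livers of males A and B and females A and B, and at 220, 220, 197 and 195 FPKM in the cortex of the same animals. Both uteri were next, with 10.1 FPKM (female A) and 9.25 FPKM (female B), and muscle was the lowest of the replicated non-liver labels, with 0.102 to 0.272 FPKM. Its Liver mean was 109 ppm of its cortex level, inside the 0 to 179 ppm at which cortex-restricted genes stood in the livers. Whether traces account for the liver value was not tested.

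The 10 genes with the largest ratios (234 to 738) lay between 0.0147 and 0.212 FPKM in liver on average, and 8 of them were highest in frontal cortex. The 2 exceptions were highest in muscle, with 36.5 FPKM there and 30.9 in heart, and in rumen, with 338 FPKM there, 234 in heart and 126 in kidney. With the highest label of each gene left out, the largest ratio was 369, in the exception highest in muscle. At such liver levels a value rests on few fragments, and the SD over the 4 livers exceeded the mean for 4 of these 10 genes, among them ENSBTAG00000017075 (0.0227 ± 0.0291 FPKM, SD, n = 4).

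ENSBTAG00000012927 was the most abundant gene of the set. It had 115, 71.7, 73.5 and 65.0 FPKM in the livers of males A and B and females A and B, and 15786, 19270, 22532 and 19109 FPKM in the muscle of the same animals. Heart followed at 1805 FPKM, adipose tissue at 1174 and frontal cortex at 725, and the lowest other library, the lactating gland, had 119 FPKM, only 1.04 times the highest liver. The gene was thus abundant everywhere, liver included, with the mean of the other labels at 23.2 times the Liver mean.

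The next genes by level had other leading tissues. The second lay between 29.1 and 39.6 FPKM in the 4 livers, against 3616 in adipose tissue, 2028 in uterus and 1469 in the dry gland. The third had 99.1 FPKM ± 32.8 in liver, the highest Liver mean of the set, against 2835 in heart and 1506 in frontal cortex. The fourth had 16.4 FPKM ± 2.60 in liver against 1719 in the dry gland, and 65.0, 33.9 and 30.9 FPKM in cortex, muscle and heart. The seventh had 7.66 FPKM ± 0.607 in liver against 1708 in the lactating gland and 916 in rumen, and it was nearly as low in lymphocytes (8.59 FPKM). The fifth and sixth had 28.3 ± 8.45 and 21.4 ± 6.93 FPKM in liver, against 1203 FPKM in heart and 1876 FPKM in muscle, and both were lowest in the lactating gland (42.9 and 47.7 FPKM). The ninth had 9.49 FPKM ± 3.36 in liver, against 1061 in rumen and 973 in adipose tissue, and kidney was its lowest other label, at 24.7 FPKM. Abundance outside liver therefore came from different tissues for different genes.

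The steadiest gene over the other labels, by its coefficient of variation of 0.285, had 2.19 FPKM ± 0.637 in liver (SD, n = 4) and label means of 5.21 (lactating gland) to 18.7 FPKM (lymphocytes). The next steadiest had 6.21 ± 0.720 FPKM in liver and 12.3 to 40.5 FPKM elsewhere. The 5 steadiest genes had ratios of 4.33 to 5.79, near the threshold. All of the 5 most variable genes were highest in frontal cortex, which held 81.1% to 93.8% of their summed label means.

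Comparisons among the non-liver libraries asked whether the liver-low genes were also high or low in another tissue. Each tissue's mean was set against the unweighted mean of the 13 remaining non-liver labels on the log2(FPKM + 1) scale, over 43 libraries and 16540 genes, with limma. A gene was called at a Benjamini-Hochberg adjusted p under 0.05 and a difference of at least 1, or 2-fold. All 219 genes passed the filter of 1 FPKM in 2 libraries. The rule did not contrast these tissues with each other, but it used the same 43 libraries: every one had to exceed the livers, and a single high label raises the mean that entered the ratio. Counts called higher or lower are therefore partly set by the choice of genes and are given as a description. The same holds for the differences and p-values of single genes, which were picked as the largest in these same libraries. The fit also took libraries of the same animal as independent. The 11407 genes above 0 in all 43 libraries carry the first condition in part, and the 2148 of them that met the ratio without the separation, a background added after the results were seen, carry the second.

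In frontal cortex 107 of the 219 genes (48.9%) were called higher and 21 (9.59%) lower. Of all genes tested 22.5% were called higher and 13.2% lower, and of the broadly present genes 2277 of 11407 and 13.6%. Of the 2148 genes with the same ratio, 38.4% were called higher and 22.1% lower. The median difference was 0.83 for the set, 0.40 for the 2148 genes and 0.05 for all genes tested. ENSBTAG00000038584 had the largest rise, with 569, 573, 700 and 695 FPKM in the cortex of males A and B and females A and B, against at most 17.7 FPKM in any other non-liver library. Its livers held 0.196, 0, 0.217 and 0.0434 FPKM, and kidney was its second label, with 14.4 to 17.7 FPKM. In log2 it differed by 7.73 ± 0.15 (SE, limma adjusted p = 6.96e-31). The next in rank had 516 FPKM ± 46.8 in cortex and a mean of 4.48 over the other labels, and the third 190 FPKM ± 8.14 and 1.06 (SD, n = 4 each).

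The 3 largest falls in cortex were in genes highest in adipose tissue or ovary. The largest fall had 3.20 FPKM ± 1.11 in cortex (SD, n = 4), against 225 in adipose tissue and a mean of 61.2 over the 13 labels, a difference of -3.48 ± 0.27 (SE). In liver it had 1.19 FPKM ± 0.430. The next fall had 0.771 FPKM ± 0.253 in cortex, against 79.4 in ovary.

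In kidney 26 genes (11.9%) were called higher and 40 (18.3%) lower, against 15.8% and 9.27% of all genes tested and 15.7% and 9.49% of the broadly present genes. Of the 2148 genes with the same ratio, 13.1% were called higher and 28.6% lower. Every kidney library of a gene in the set had to exceed its livers, which was not required of the 2148. Whether this requirement accounts for the smaller share of kidney-low genes in the set than in the 2148 was not tested. The median difference was -0.30 for the set, -0.47 for the 2148 genes and 0.02 for all genes tested. ENSBTAG00000019822 had the largest fall, -3.66 ± 0.22 (SE, limma adjusted p = 6.09e-16). It had 5.20, 7.21, 5.34 and 4.41 FPKM in the kidneys of males A and B and females A and B, against 385, 390, 580 and 520 FPKM in the lungs. Its livers held 2.45, 1.20, 0.834 and 1.08 FPKM. Kidney was the non-liver label nearest to liver, followed by the single lactating gland library (11.8 FPKM) and spleen (9.75 to 20.1 FPKM). The second fall, to 2.42 FPKM ± 0.402 in kidney (SD, n = 4), was in the cortex-led gene with the third widest separation from liver. The third, to 78.0 FPKM ± 18.9, was in the gene with 3616 FPKM in adipose tissue.

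Genes called higher in kidney included abundant ones. The 3 largest rises had 189 ± 21.7, 608 ± 32.5 and 279 ± 13.8 FPKM in kidney (SD, n = 4 each), against means of 30.8, 50.6 and 24.2 FPKM over the other labels, and 1.48, 3.57 and 2.20 FPKM in liver. Rumen was the next label for the first 2 of them, with 288 FPKM, above kidney, and 162 FPKM.

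In lung 33 genes (15.1%) were called higher and 16 (7.31%) lower, against 17.0% and 2.82% of all genes tested and 16.7% and 2.13% of the broadly present genes, and 28.1% and 5.17% of the 2148. The median difference was 0.17 for the set, 0.45 for the 2148 genes and 0.21 for all genes. The largest rise had 270, 211, 207 and 218 FPKM in the lungs of males A and B and females A and B, against 2.44 to 71.5 FPKM in the other non-liver libraries, and 1.14 FPKM ± 0.236 in liver (SD, n = 4). The largest fall had 1.01 FPKM ± 0.387 in lung, against 338 in rumen. It is the rumen-led gene with a ratio among the 10 largest.

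In muscle 24 of the 219 genes were called higher and 85 (38.8%) lower, against 5.50% and 40.9% of all genes tested and 5.43% and 50.2% of the broadly present genes, and 11.4% and 58.6% of the 2148. The median difference was -0.77 for the set, -1.21 for the 2148 genes and -0.80 for all genes. The most abundant gene, ENSBTAG00000012927, also had the largest rise in muscle, 5.51 ± 0.13 in log2 (SE, limma adjusted p = 8.77e-28). The next rose to 173 FPKM ± 37.3 in muscle (SD, n = 4) and averaged 9.80 over the other labels, with heart next at 81.6 FPKM and liver at 0.168 FPKM ± 0.131. The largest fall had 21.7 FPKM ± 8.50 in muscle and averaged 319 over the other labels. It is the gene that led in the lactating gland.

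**Figure D4:**
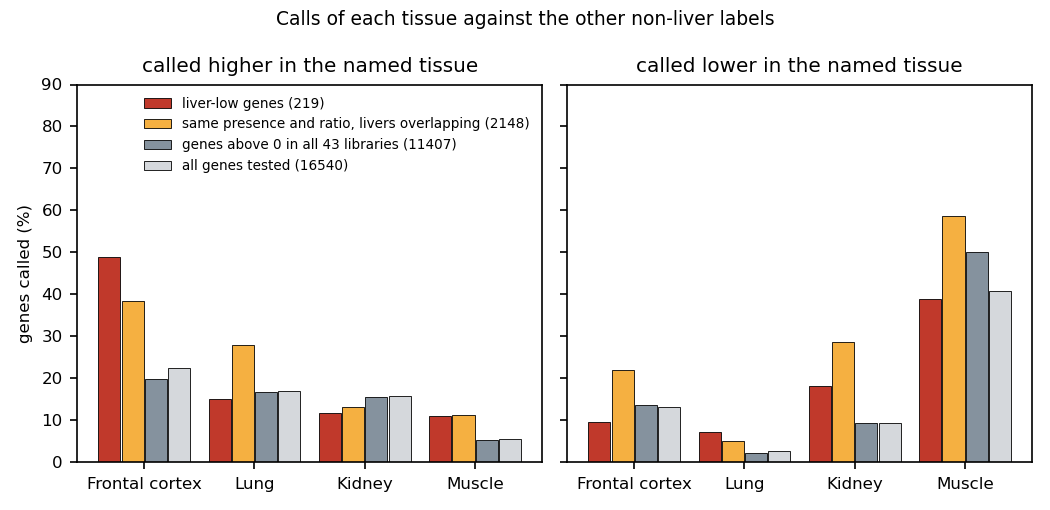
Percent of genes called higher (left) and lower (right) in each named tissue against the mean of the other non-liver labels, by limma at an adjusted p under 0.05 and a log2 difference of at least 1; bars are the 219 genes, the 2148 genes with the same presence and ratio but overlapping livers, the 11407 genes above 0 in all 43 libraries and the 16540 genes tested. In frontal cortex 48.9% of the set were called higher, against 38.4% of the 2148 and 22.5% of all genes tested.

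These counts depended on the scaling. Quantile normalization shifted the median difference by -0.33 for the set and -0.31 for all genes in frontal cortex, by -0.26 and -0.21 in kidney, by -0.47 and -0.39 in lung, and by 0.97 and 0.64 in muscle. After it, 85 genes of the set were higher and 35 lower in cortex (all genes 17.0% and 19.5%), 20 and 63 in kidney (all genes 11.8% and 12.0%), 21 and 34 in lung (all genes 10.9% and 6.93%), and 53 and 14 in muscle (all genes 12.4% and 13.7%). In the set, which of the counts, higher or lower, was larger differed between scalings in lung and muscle. Over all genes the larger count stayed the same in these tissues, but it differed between scalings in frontal cortex and kidney. The part of the shift of all genes in the counts of the set was not tested.

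Rescaling to the same summed FPKM shifted the median of all genes by 0.24 in cortex, 0.11 in kidney, 0.19 in lung and -0.01 in muscle. It gave 116 higher and 15 lower in cortex (all genes 28.1% and 10.9%), 29 and 32 in kidney (all genes 18.4% and 8.13%), 48 and 9 in lung (all genes 21.6% and 2.15%), and 24 and 86 in muscle (all genes 5.43% and 41.3%).

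The rule used the highest of the 4 livers of each gene, so a gene with 1 high liver was less likely to be kept, and the spread among the livers is given as a description. The median coefficient of variation over the livers was 0.250. The median level of a gene in the set was 1.27 and 1.25 FPKM in the male livers (A and B), against 1.03 and 1.04 FPKM in the female livers (A and B). The liver of male A was the highest of the 4 for 94 genes (42.9%), against 31.1% of 11188 other broadly present genes, and that of male B for 70 (31.96% against 38.4%). The female livers were the highest for 29 (female A, 13.2% against 21.3%) and 26 (female B, 11.9% against 9.21%). The liver of male A also had the deepest library by the rough estimate from low values and the highest traces of rumen, muscle and cortex genes. The part of these in its levels was not tested.

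Male and female livers were compared in a limma fit of 40 libraries and 16503 genes at an adjusted p under 0.05 with no minimum difference, in which 2 animals stand for each sex. Of the 219 genes, 1 (0.457%) was called higher in males and 0 lower, against 0.327% and 0.164% of all genes tested and 0.289% and 0.0438% of the broadly present genes. Of the 2148 genes with the same ratio, 0.466% were called higher and 0 lower. The median difference was 0.11 for the set and 0.09 for all genes, but 0.14 for the broadly present genes and 0.18 for the 2148. In the set 17 of the 219 (7.76%) had an unadjusted p under 0.05, against 9.48% of all genes tested and 11.3% of the broadly present genes. The comparison is not free of the choice of genes, which limits the highest liver. The called gene had 7.63 and 7.32 FPKM in the livers of males A and B, against 4.21 and 4.26 FPKM in those of females A and B, a difference of 0.69 ± 0.15 in log2 (SE, limma adjusted p = 0.030). The SE and p-value pool the spread within 20 cells of tissue and sex, not within the livers alone. These liver values also entered the choice of genes, so both are given as a description. The sexes did not overlap, but the gene lost its call when any 1 of the 4 animals was left out, with differences of 0.67 to 0.72, and in the 4 livers alone. Without female B another gene of the set was called. The gene was highest in lymphocytes, with 104 FPKM.

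**Figure D5:**
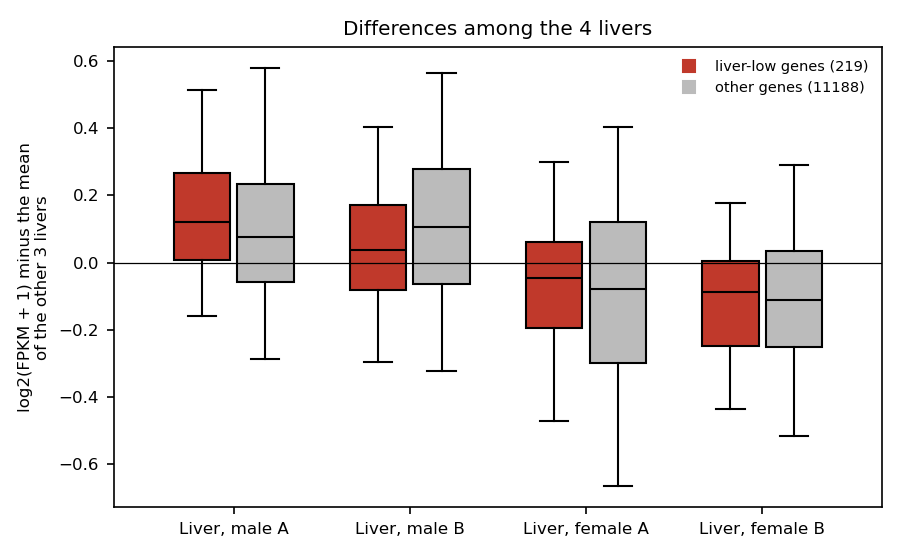
Difference of each liver from the mean of the other 3 livers, in log2(FPKM + 1), for the 219 genes and for 11188 other genes above 0 in all 43 non-liver libraries; boxes span the quartiles with the median as a line, and whiskers run from the 5th to the 95th percentile. The medians of the set are 0.12 and 0.04 in the male livers and -0.04 and -0.09 in the female livers, and those of the other genes lie on the same side of 0.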

How the data were processed

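RNA was extracted with Trizol, DNase and RNeasy columns and sequenced as paired reads from TruSeq libraries, per the labels' protocols. Trimmomatic 0.39, STAR and Cufflinks and the build UMD3.1 are listed in the submitters' processing notes, with no annotation named. The authors deposited 1 table of FPKM for 24616 Ensembl gene identifiers, in which 47 of 51 columns matched a sample by name (1 muscle column by its tissue code and number) and the other 4 were not used. No identifier could be paired with a symbol, so the gene lists and marker lists set out by symbol were not applied, and the rules for named genes ran over identifiers. The 4 printed are those with the largest ratio, the highest level, the largest rise in cortex and the largest fall in kidney. The members and lists were chosen with earlier results of these data known.

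Contrasts were fitted on log2(FPKM + 1), which understates changes of low genes, with limma 3.58.1 (R 4.3.3, variance trend, Benjamini-Hochberg adjustment). Male and female liver were compared in 20 cells of tissue and sex. Animals link the tissues by their numbers in the sample names: males A and B are 3770 and 3773, females A and B are 3842 and 3886, and the further male is 4254. No label says more of how pieces were taken, so p-values measure the spread between these samples. Residuals of libraries of the same animal correlated at a median of 0.182 (180 pairs), and those of different animals at -0.063. Trace genes had at least 2000 FPKM (200 for cortex) in the source tissue and 100 times every other label. Alternatives were other pseudocounts, filters, scalings and left-out libraries. Tables and plots were made in Python 3.11.15 (pandas 2.3.3, numpy 2.4.6, matplotlib 3.10.9).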

Additional observations from a re-analysis of the deposited data

Results flagged for a closer look

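In 50 groups of 4 libraries (10 labels, for the summed level of the set and the 4 printed identifiers) a library standing far from the other 3 was looked for, which chance alone gives in about 1 group in 20. ENSBTAG00000012927 had 115 FPKM in the liver of male A, against 65.0 to 73.5 FPKM in the other 3 livers. The same identifier had 514 FPKM in the rumen of female A, against 603 to 619 FPKM in the other 3 rumens.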

How the results depend on the processing

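The number of genes that met the rule was 142 at a ratio of 8, 4485 when livers could overlap other libraries, 128 after rescaling, 95 after quantile normalization, 609 without lymphocytes and mammary glands, 399 without the low-trace libraries (an alternative added after seeing the data), and 246 to 471 without each animal in turn. Quantile normalization gave 21 genes higher and 34 lower in lung, 63 lower in kidney, 35 lower in frontal cortex, and 53 higher and 14 lower in muscle, and rescaling gave 9 lower in lung. With the animal as a replicate block, without lymphocytes, 105 genes were higher and 22 lower in frontal cortex, 27 and 47 in kidney, 30 and 20 in lung, and 24 and 87 in muscle, which changed no count by over 1.5 times. The genes higher in male livers numbered 4 with a pseudocount of 0.1, 2 without the filter and 0 to 1 without each animal in turn. They numbered 0 after quantile normalization, without the low-trace libraries and in limma on the 4 livers alone, where 8 (3.65%, against 6.44% of all genes), 19 (8.68%, against 10.4%) and, of 124 tested, 13 (10.5%, against 9.79%) had an unadjusted p under 0.05. Of 298 alternatives for single genes described by rank, 291 kept the call and the sign, and the 7 that lost the call all belong to the gene called between male and female livers. The genes of the tissue contrasts were picked for the largest called differences, so their kept calls say little about other calls. FPKM without counts gives no depth, and liver values under 0.1 FPKM rest on few fragments. The cause of each change was not tested.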
